A study of Homo sapiens with 16 samples.

Results

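The genes described here belong to the rapid response to growth factors and cytokines, measured in LX-2, a human line made from hepatic stellate cells and immortalised. Stellate cells are the matrix-producing cells of the scarred liver. The genes were chosen by symbol alone: EGR1, EGR2, EGR3, IER2, IER3, IER5, NR4A1, NR4A2, NR4A3 and MYC, 10 of the 61806 genes in the deposited table. RNA with poly(A) tails was sequenced from 4 groups of 4 replicates. The first group was wild-type cells given the vehicle PBS (WT), and the TWEAK group was wild-type cells treated for 2 h with 100 ng/mL of TWEAK, a cytokine of the TNF family. The other groups were lines edited with CRISPR/Cas9, both given PBS: the Fn14alpha knockout, and the Fn14 knockout, in which total Fn14 was targeted. All cells had been cultured for 24 h beforehand in a reduced-serum endothelial medium. Fn14 is the receptor of TWEAK and the product of TNFRSF12A, and Fn14alpha is the name the labels give to the form removed in the first knockout. The labels do not say whether a knockout is 1 clone or a pool of cells, so an edited line and its receptor change cannot be told apart. Replicates are labelled as biological, but nothing says how they were separated, and p-values measure the spread between these samples, which may be technical.

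Early genes are transcribed within minutes of a signal, without new protein synthesis, because their promoters already hold the factors that kinases act on. The ERK kinase cascade switches on the ternary complex factors ELK1, ELK3 and ELK4, which sit beside the serum response factor SRF at CArG boxes, and many early mRNAs are short, have few introns and decay quickly. EGR1 to EGR3 are zinc-finger transcription factors, NR4A1 to NR4A3 are nuclear receptors with no known physiological ligand, IER2 and IER5 are nuclear regulators of transcription, IER3 is a short protein that modulates survival and ERK signalling, and MYC drives cell growth with its partner MAX.

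Total counts per library ran from 13335919 to 16888606. TNFRSF12A itself was at 128 ± 6.29 FPKM in WT and 130 ± 7.07 with TWEAK, against 59.3 ± 6.43 in Fn14alpha knockout cells and 33.6 ± 2.77 in Fn14 knockout cells (SD, n = 4 each), so both knockouts lay below wild type, as labelled, while transcript remained in both. FPKM is the deposited read count scaled by the length of the exons and the library total. WT replicate 4 and Fn14 knockout replicate 1 stood apart from their replicates: the chi-square per degree of freedom was 22.5 to 42.9 in the 6 replicate pairs that hold either of them and 2.40 to 14.9 in the other 18 pairs. Of 10 stellate cell markers 8 were tested, and their summed level was 630 to 676 FPKM in WT and 829 to 901 with TWEAK, against 475 to 486 in Fn14alpha knockout cells and 831 to 919 in Fn14 knockout cells. VIM, COL1A1 and TIMP1 carried most of that sum, and its members went different ways: with TWEAK the mean of VIM went from 378 to 612 FPKM, while COL1A1, COL1A2, COL3A1, PDGFRB and DCN had lower means than in WT. In the Fn14 knockout COL1A2 went from 1.48 to 0.160 FPKM, COL3A1 from 23.7 to 8.33 and DCN from 3.79 to 0.995. Higher means there than in WT were those of COL1A1 (133 to 196), TIMP1 (103 to 207), PDGFRB (1.79 to 3.92) and VIM (378 to 447). In the Fn14alpha knockout COL1A2 (0.425), DCN (0.47), ACTA2 (1.21) and VIM (259) had lower means than in WT. So did COL1A1, COL3A1, TIMP1 and PDGFRB, and only DES was higher. LRAT, which stores retinol in quiescent stellate cells, was at most 0.01 FPKM and DES at most 0.26. Of 5 hepatocyte markers 1 was tested, SERPINA1, with means of 2.38 FPKM in WT, 2.76 after TWEAK, 0.975 in Fn14alpha knockout cells and 0.423 in Fn14 knockout cells. The 5 summed to 2.25 to 2.67 FPKM in WT, 2.55 to 3.08 with TWEAK, 1.02 to 1.38 in Fn14alpha knockout cells and 0.26 to 0.72 in Fn14 knockout cells, with ALB at most 0.06 and TTR at 0. Of 5 leukocyte markers 2 were tested, and PTPRC was at most 0.02 FPKM. Of 5 endothelial markers 1 was tested, with a summed level of at most 0.54 FPKM. The sum of 4 cholangiocyte markers was 5.19 to 7.20 FPKM in the other groups and 11.3 to 12.8 in the Fn14 knockout, nearly all of it SOX9, with EPCAM at most 0.28. The part of these marker differences in the results that follow was not tested. All libraries came from LX-2 cells, and in such bulk RNA fewer cells that express a marker and less of its RNA per cell cannot be told apart.

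The 10 genes spanned a wide range of expression in WT cells. IER3 was highest at 31.4 ± 2.71 FPKM, above MYC at 20.4 ± 1.42, IER5 at 19.1 ± 1.30 and IER2 at 18.3 ± 0.585 (SD, n = 4). MYC overlapped IER5 and IER5 overlapped IER2, while IER3 lay above MYC in every library. EGR1 followed at 6.11 ± 0.841 FPKM, NR4A1 at 1.32 ± 0.140 and NR4A3 at 0.388 ± 0.0450, each apart from the next. NR4A2 at 0.205 ± 0.0493 FPKM overlapped EGR3 at 0.123 ± 0.0574, which overlapped EGR2 at 0.0675 ± 0.0350 FPKM. Set among the 16029 genes with enough reads for a test, WT levels lay between the 83.4th and the 90.8th percentile for the IER genes and MYC, at the 60.5th for EGR1 and at the 29.8th for NR4A1, and between the 3.08th and the 13.3th for NR4A3, NR4A2 and EGR3. EGR2 had 0 to 7 reads in any library and was the only gene of the 10 that failed the filter on low counts. In the Fn14 knockout the order of the top changed, with MYC, IER5 and IER3 overlapping in that order.

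**Figure D1:**
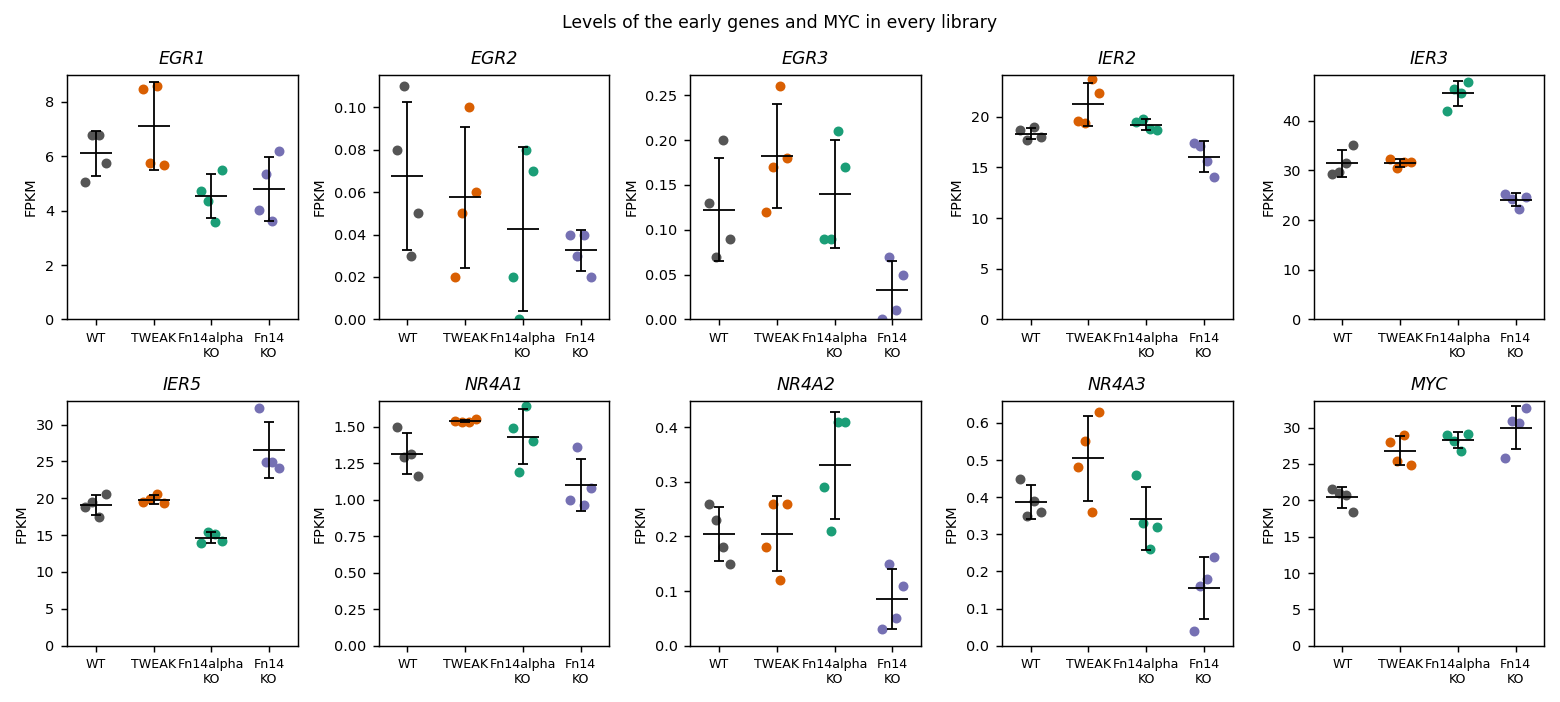
Level of each gene in FPKM (vertical axis, own scale per panel, from 0) in WT, TWEAK-treated, Fn14alpha knockout and Fn14 knockout cells. Points are the 4 libraries of a group, lines the mean and bars the SD; MYC rose in the other 3 groups against WT, IER3 and IER5 moved in opposite directions in the knockouts, and EGR3, NR4A2 and NR4A3 were lowest in the Fn14 knockout.

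The spread between replicates differed by gene. The pooled SD within groups on the log2 scale was 0.0897 for IER3, 0.105 for MYC, 0.107 for IER2, 0.122 for IER5 and 0.159 for NR4A1, against a median of 0.161 over all tested genes. It was 0.291 for EGR1, 0.470 for NR4A2, 0.510 for NR4A3 and 0.619 for EGR3. EGR1 held 160 to 427 reads per library and varied more than the median gene, whereas EGR3, NR4A2 and NR4A3 held 0 to 53 reads per library.

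The genes lie on 9 chromosomes, at these positions of the deposited table (GRCh38). EGR1 (ENSG00000120738) spans chromosome 5, 138465479 to 138469303, plus strand, and EGR2 (ENSG00000122877) chromosome 10, 62811996 to 62819167, minus strand. EGR3 (ENSG00000179388) and MYC (ENSG00000136997) share chromosome 8, at 22687659 to 22693480 on the minus strand and 127735434 to 127742951 on the plus strand. IER2 (ENSG00000160888) spans chromosome 19, 13150411 to 13154911, plus strand, IER3 (ENSG00000137331) chromosome 6, 30743199 to 30744548, minus strand, and IER5 (ENSG00000162783) chromosome 1, 181088700 to 181092900, plus strand. NR4A1 (ENSG00000123358) spans chromosome 12, 52022832 to 52059507, plus strand, NR4A2 (ENSG00000153234) chromosome 2, 156324437 to 156342348, minus strand, and NR4A3 (ENSG00000119508) chromosome 9, 99821855 to 99866891, plus strand. Antisense or overlapping genes at these loci held at most 18 reads summed over a group (IER3-AS1 in the Fn14alpha knockout, against 10 in WT), and the labels do not say whether the counting used strand. The exons of IER3 and IER5 in the table fill the whole gene span, so reads from unspliced IER3 RNA would be counted with the mRNA.

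Gene structure differed by family. By the GENCODE 29 transcript with the longest coding sequence, IER2 and IER5 have 1 exon, the EGR genes and IER3 have 2, MYC has 3, and NR4A1, NR4A2 and NR4A3 have 8, 8 and 9; over 18974 coding genes the median was 8, and 18.9% had 3 or fewer. The pentamer ATTTA, the core of AU-rich elements that shorten the life of an mRNA, occurred 8.40 times per kilobase in the 3′ UTR of MYC, 8.14 in IER3 and 5.39 in NR4A1, against a median of 1.38. Those densities lie at the 97.4th, 97.1th and 91.4th percentile of all genes. IER2 held no ATTTA, and EGR1 held 0.810 per kilobase. A match of this kind describes the sequence and measures no decay.

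Promoter windows from RefSeq (GRCh38.p14, 250 bases before to 50 after a start) were matched for 6 of the 10 genes, EGR1, EGR2, IER2, IER5, NR4A1 and NR4A3, with 9 windows. The CArG box, the element that SRF binds, was searched on both strands by its usual consensus. It occurred in 1.29% of 35116 windows, and only 11 windows (0.0313%) held 2 or more; the EGR1 window was among them. Counted from the start as 0, its boxes lie at −105 to −96 and −83 to −74, and an internal start of EGR2 has a box at −71 to −62. Both stretches are shown because SRF and its cofactors are described with the knockouts further on, with the boxes in capitals; the EGR1 stretch is chr5:138465349-138465430 on the plus strand and the EGR2 stretch chr10:62816403-62816462 on the minus strand.
EGR1: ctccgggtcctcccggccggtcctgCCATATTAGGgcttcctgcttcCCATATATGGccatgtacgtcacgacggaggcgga
EGR2: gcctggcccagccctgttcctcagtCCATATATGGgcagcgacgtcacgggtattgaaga
The same 10 letters, CCATATATGG, form the box nearer the start in EGR1 and the box of EGR2. On both strands, the GC box GGGCGG occurred in 5 of the 9 windows (2 of EGR2 and 1 each of IER2, NR4A1 and NR4A3), against 45.0% of all windows. An NF-kB site, searched by its usual consensus, occurred in 1 window of EGR2, against 11.3% of all windows, and the cAMP response core TGACGTCA in none of the 9, against 1.85%.

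Of the 9 tested genes, TWEAK for 2 h raised MYC and IER2 and left the others short of the threshold. No other time was sampled, so a change that had ended before 2 h could not be seen. MYC rose 1.37-fold and IER2 1.21-fold, and NR4A1 was higher in all 4 treated libraries without passing the test. Thus 2 of the 9 tested genes were called higher and 0 lower by edgeR at a false discovery rate of 0.05, where 6.87% of all tested genes were called, 4.82% higher and 2.05% lower. At an unadjusted p under 0.05 there were 3 genes, all higher; DESeq2 called 2 and limma on log2 FPKM 1. The median log2 fold change of the 9 genes was 0.28, against −0.01 over all tested genes. Leaving out WT replicate 4 and Fn14 knockout replicate 1 together left 2 calls.

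MYC was at 21.6, 21.1, 20.7 and 18.4 FPKM in WT replicates 1 to 4 and at 28.08, 25.40, 28.98 and 24.90 with TWEAK. All 4 treated libraries lay above all 4 WT libraries, and the log2 fold change was 0.45 ± 0.07 SE (edgeR adjusted p = 1.41e-04). IER2 was at 18.70, 17.69, 18.96 and 18.04 FPKM in WT and at 19.58, 19.39, 23.69 and 22.36 with TWEAK. Its groups did not overlap either, but treated replicates 1 and 2 lay close to WT, and the log2 fold change was 0.27 ± 0.08 SE (edgeR adjusted p = 0.0320). This IER2 call was lost in 9 of 18 alternatives (adjusted p from 0.0117 to 0.164), among them library totals as the scale (0.0869), the replicate block (0.0619), WT replicate 1, 2 or 4 left out (0.0638, 0.0832 and 0.0589) and TWEAK replicate 3 or 4 left out (0.164 and 0.0982). NR4A1 was at 1.5, 1.29, 1.31 and 1.16 FPKM in WT replicates 1 to 4 and at 1.54, 1.53, 1.53 and 1.55 with TWEAK. The treated libraries were nearly equal and above every WT library, with WT replicate 1 just below the lowest of them, with a log2 fold change of 0.29 ± 0.12 SE (edgeR adjusted p = 0.151).

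EGR1 was at 5.07, 6.80, 6.78 and 5.77 FPKM in WT and at 8.47, 5.75, 8.59 and 5.69 with TWEAK, where 2 libraries lay above every WT library and 2 within the WT range. Its log2 fold change was 0.28 ± 0.17 SE (edgeR adjusted p = 0.365). NR4A3 had 41, 37, 39 and 37 reads in WT and 46, 52, 36 and 53 with TWEAK, and EGR3 9, 6, 16 and 7 against 9, 13, 21 and 12. Both overlapped between the groups, with log2 fold changes of 0.43 ± 0.25 and 0.66 ± 0.43 SE. IER3 (0.06), IER5 (0.11) and NR4A2 (0.03) had log2 fold changes nearest 0, and the sign for NR4A2 turned under 8 of 18 alternatives.

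**Figure D2:**
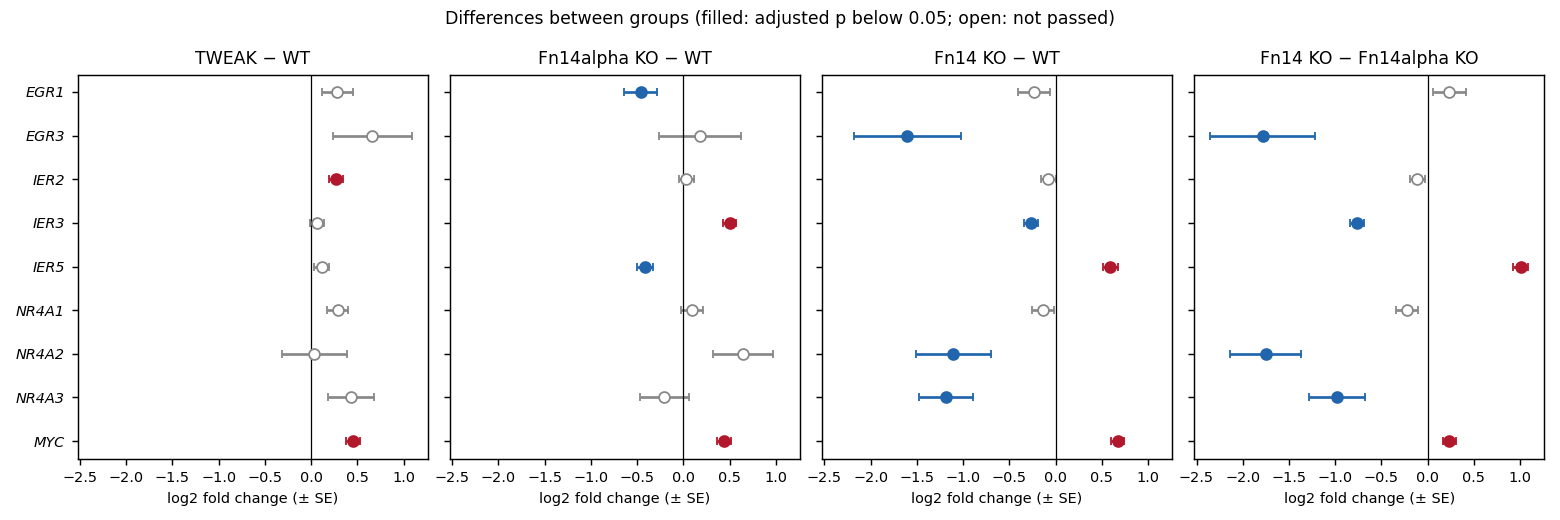
Log2 fold change with its SE (horizontal axis) of the 9 tested genes in 4 comparisons; filled points passed at an adjusted p below 0.05, red higher and blue lower, and open points did not pass. With TWEAK only MYC and IER2 are filled, and the differences between the knockouts reach 1.01 for IER5 and −1.78 for EGR3.

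Deviations from the group mean differed between treated replicates. Over the 6 genes with a mean of at least 2 log2 CPM, TWEAK replicate 2 lay on average 0.10 log2 below its group mean, with 0 of 6 genes above it, and TWEAK replicate 3 lay 0.10 above, with 5 of 6 above; replicates 1 and 4 had 4 and 3 of 6 above. EGR1 deviated most of the 6, by −0.29 in replicate 2 and 0.30 in replicate 3. The low-level NR4A2 and NR4A3 went the other way, with 0.34 and 0.13 in replicate 2 and −0.56 and −0.44 in replicate 3. EGR3, also low-level, did not, with −0.05 in replicate 2 and 0.51 in replicate 3. Of 32 other early genes measured at that level, 3 were above their group mean in TWEAK replicate 2, 25 in replicate 1, 23 in replicate 3 and 11 in replicate 4. Deviations in WT libraries ran from −0.02 to 0.03 over the 6 genes, and those in the Fn14 knockout from −0.11 in replicate 3 to 0.09 in replicate 2. Genes of 1 library share its depth and scaling, so these are descriptions of libraries.

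Among 34 other tested early genes, 11 were higher with TWEAK and 1 lower, with a median log2 fold change of 0.17. Of all tested genes 4.82% were called higher and 2.05% lower. JUNB, an AP-1 subunit, rose from 34.6 ± 2.35 to 58.8 ± 2.21 FPKM (log2 fold change 0.82). CCN1, a secreted matrix protein and SRF target, rose from 155 ± 8.77 to 267 ± 33.2 FPKM (0.84), and FOSL1, an AP-1 subunit, from 141 ± 17.7 to 244 ± 18.7 (0.85). The gene called lower was SGK1, a kinase induced by serum and glucocorticoids (−0.33; named after its value was seen). FOS and FOSB did not pass, at 1.00 ± 0.0622 against 0.885 ± 0.0656 FPKM and 0.980 ± 0.104 against 1.16 ± 0.131 (both named after their values were seen). Log2 fold changes of the called genes JUNB, CCN1 and FOSL1 thus exceeded that of MYC, though the difference between genes was not tested.

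Genes of the pathways upstream and downstream of the 10 were counted list by list with TWEAK, to be read against the 6.87% called among all tested genes. Of the 6 genes for SRF, its ternary complex factors and the actin-sensing cofactors MRTFA and MRTFB, 1 was higher and 0 lower by edgeR (median 0.10): SRF, at 23.0 in WT and 26.1 FPKM with TWEAK, rose by 0.24 (edgeR adjusted p = 0.0112). In the ERK cascade 3 of 16 were higher and 0 lower (median 0.09), MAP2K1 (MEK1) by 0.40, the GTPase NRAS by 0.28 and the receptor EGFR by 0.40. Of 8 EGR partners and targets 0 were higher and 1 lower (median −0.02), F3 or tissue factor, by −0.26, a call that was lost with the median of its neighbouring genes removed (adjusted p = 0.237). Of the NR4A partners RXRA and RXRB neither passed (median −0.01). Of 15 tested genes of the MYC network, 2 were higher, among them the kinase PIM1 (0.31), and 1 was lower, MXD3, which competes with MYC for MAX (−0.55; median 0.09). Among 18 MYC targets of ribosome and nucleotide synthesis 2 were higher and 0 lower (median 0.10): NOLC1 by 0.31 and POLR1B, a subunit of RNA polymerase I, by 0.26; leaving out both libraries that stood apart gave 5 and 0.

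In the Fn14alpha knockout 4 of the 9 tested genes were called. MYC was 1.35-fold and IER3 1.42-fold higher than in WT, IER5 was 1.33-fold and EGR1 1.38-fold lower, and the NR4A genes did not pass. That makes 2 of 9 tested genes higher and 2 lower, where 42.2% of all tested genes were called, 20.0% higher and 22.2% lower. The called share of the 9 genes was near that background. Their median log2 fold change was 0.09, against 0.01 over all tested genes, and 3 calls were left without the 2 libraries that stood apart, since EGR1 was lost (−0.48, adjusted p = 0.0925). The same 4 WT libraries served in every comparison with WT, so those comparisons are not independent of each other.

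MYC was at 29.04, 28.13, 26.83 and 29.15 FPKM in the 4 Fn14alpha knockout libraries, all above the WT range of 18.4 to 21.6. The log2 fold change was 0.44 ± 0.07 SE (edgeR adjusted p = 3.32e-05). IER3 was at 29.2, 29.7, 31.4 and 35.2 FPKM in WT and at 41.9, 46.5, 45.6 and 47.9 in the knockout. The groups lay well apart, with a log2 fold change of 0.50 ± 0.07 SE (edgeR adjusted p = 5.35e-06). IER5 was at 18.8, 19.4, 17.5 and 20.6 FPKM in WT and at 13.9, 15.4, 15.2 and 14.2 in the knockout. All knockout libraries lay below all WT libraries, with a log2 fold change of −0.41 ± 0.08 SE (edgeR adjusted p = 2.76e-04). EGR1 was at 4.73, 4.36, 3.57 and 5.49 FPKM in the knockout, and replicate 4 reached into the WT range of 5.07 to 6.80. Its log2 fold change was −0.46 ± 0.18 SE (edgeR adjusted p = 0.0415), a call lost in 10 of 18 alternatives (adjusted p from 2.62e-04 to 0.132), including each WT replicate but replicate 1 and each knockout replicate but replicate 4 left out.

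NR4A2 had 15, 16, 12 and 10 reads in WT and 18, 12, 24 and 25 in the Fn14alpha knockout. The groups overlapped, and its log2 fold change of 0.65 ± 0.33 SE did not pass (edgeR adjusted p = 0.116). NR4A3 (−0.21), NR4A1 (0.09), IER2 (0.03) and EGR3 (0.18) did not pass either. EGR2 summed to 16 reads in WT and 13 with TWEAK, and to 9 and 7 in the Fn14alpha and Fn14 knockouts; tested without a filter, it passed in none of the 4 comparisons (edgeR adjusted p from 0.439 to 1).

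Neighbours on the chromosome moved with some of these genes. The median log2 fold change of the 50 tested genes on either side was 0.42 around IER3 on chromosome 6, −0.41 around NR4A1 on chromosome 12 and −0.34 around NR4A3 on chromosome 9 in this comparison, and between −0.09 and 0.15 around the other 6. With that local median taken out in the fit, IER3 went from 0.50 to 0.08 and no longer passed (edgeR adjusted p = 0.453). NR4A1, in turn, went from 0.09 to 0.51 and passed (edgeR adjusted p = 0.00184). MYC (0.41), IER5 (−0.33) and EGR1 (−0.51) kept their calls. What the shift shared by neighbours comes from was not tested.

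Other early genes went both ways in the Fn14alpha knockout, with 8 of 34 higher and 11 lower (median −0.06). The list counts here are to be read against the 20.0% called higher and 22.2% lower among all tested genes. CCN2, the secreted profibrotic factor also named CTGF, rose from 38.0 ± 2.02 to 141 ± 5.39 FPKM (log2 fold change 1.86) and CCN1 from 155 to 321 FPKM (1.02). PHLDA1 fell from 34.9 ± 0.696 to 13.3 ± 0.129 FPKM (−1.43), beside a median of −0.59 in its neighbours on chromosome 12. Among SRF and its cofactors 2 of 6 were higher and 1 lower (median 0.03): SRF by 0.37, ELK4 by 0.33 and ELK3 by −0.76, of which only ELK4 passed with the local median removed. In the ERK cascade 2 of 16 were higher and 2 lower (median 0.09), with the ribosomal S6 kinase RPS6KA3 at 0.63 and MAPK3 (ERK1) at −0.56.

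EGR targets did not share a direction in the Fn14alpha knockout, where 20.0% of all tested genes were called higher and 22.2% lower. Of 8 partners and targets, 2 were higher and 3 lower (median 0.01): the growth factor chains PDGFA (0.67) and PDGFB (0.89) rose, and the heparan sulfate-cleaving enzyme HPSE fell (−1.84, from 2.11 FPKM in WT). Of the NR4A partners, RXRB was higher (0.45; 0.07 with the local median removed) and RXRA did not pass. The MYC network had 5 of 15 higher and 5 lower (median 0.06), with PIM1 at 0.66, MAX at −0.38 and the MYC antagonist MXI1 at −0.53. MYC targets had 5 of 18 higher and 3 lower (median 0.06): NOP56, a core protein of box C/D particles that modify ribosomal RNA, by 0.46, NOLC1 by 0.29 and GNL3, a nucleolar GTPase, by 0.42. With the local median removed these were 4 and 0, and GNL3 no longer passed (adjusted p = 0.105). Without both libraries that stood apart, 7 MYC targets were higher and 2 lower. Among signs of RNA quality, 1 of 13 mitochondrial mRNAs was higher and 6 lower, MT-CO3 by −0.77, and their part in these results was not tested.

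Of the 3 comparisons with WT, that of the Fn14 knockout held the most calls, among the 10 genes as among all tested genes. The called share of all tested genes was 6.87% with TWEAK, 42.2% for the Fn14alpha knockout and 52.9% here. The number of calls alone therefore does not set the 10 genes apart. Their largest fold change was also found here, for EGR3, on 38 reads in WT and 11 in the knockout. MYC was 1.59-fold and IER5 1.51-fold higher than in WT, and the low-level EGR3, NR4A2 and NR4A3 were 3.04-, 2.15- and 2.27-fold lower, with IER3 1.20-fold lower. Counts were 2 higher and 4 lower of 9, where 52.9% of all tested genes were called, 26.6% higher and 26.3% lower. The median log2 fold change was −0.23, against −0.01 over all tested genes. With both libraries that stood apart left out, 5 calls were left, and NR4A2 was lost (−0.96, adjusted p = 0.0600).

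MYC was at 25.8, 31.0, 30.6 and 32.7 FPKM in the Fn14 knockout, each above every WT library. The log2 fold change was 0.67 ± 0.07 SE (edgeR adjusted p = 3.82e-08), the neighbour median on chromosome 8 was −0.01, and no alternative changed the call. IER5 was at 32.29, 24.95, 24.90 and 24.05 FPKM, again all above WT, with replicate 1 far above the other 3. Its log2 fold change was 0.59 ± 0.08 SE (edgeR adjusted p = 1.37e-06), and 0.48 without that replicate. The neighbours of IER5 on chromosome 1 had a median of 0.48, and with it removed IER5 went to 0.12 and did not pass (edgeR adjusted p = 0.267). IER3 was at 25.3, 24.2, 22.3 and 24.6 FPKM, below all WT libraries, with a log2 fold change of −0.27 ± 0.07 SE (edgeR adjusted p = 0.00430). Its neighbours had a median of 0.20, and IER3 stood at −0.47 with it removed.

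The low-level genes fell in the Fn14 knockout on few reads. NR4A3 had 41, 37, 39 and 37 reads in WT and 4, 17, 16 and 24 in the knockout. Its groups did not overlap, and the log2 fold change was −1.18 ± 0.30 SE (edgeR adjusted p = 0.00160), kept in every alternative. NR4A2 had 15, 16, 12 and 10 reads in WT and 2, 10, 3 and 7 in the knockout, so that 1 knockout library equalled the lowest WT library. The log2 fold change was −1.11 ± 0.41 SE (edgeR adjusted p = 0.0252), lost in 6 of the 17 alternatives that tested it (adjusted p from 0.0559 to 0.0863). These 6 were without WT replicate 1 or 2, without knockout replicate 1 or 3, without both libraries that stood apart, and with the local median removed. EGR3 had 9, 6, 16 and 7 reads in WT and 0, 6, 1 and 4 in the knockout, with 1 shared value. Its log2 fold change was −1.60 ± 0.58 SE (edgeR adjusted p = 0.0225), lost without WT replicate 3 (0.105) and without knockout replicate 1 (0.0620) or 3 (0.0660). With the groups of this comparison fitted alone, NR4A2 and EGR3 failed the filter on low counts and were not tested.

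EGR1, NR4A1 and IER2 did not pass in the Fn14 knockout. EGR1 was at 4.03, 5.36, 3.62 and 6.18 FPKM, which overlapped WT (log2 fold change −0.23), and NR4A1 at 1.00, 1.36, 0.960 and 1.08 (−0.13). IER2 was at 17.4, 17.1, 15.6 and 14.1 FPKM, below every WT library on the scale of library totals, yet its log2 fold change was −0.08 with TMM scaling. With library totals as the scale it was −0.19 and passed (edgeR adjusted p = 0.0357). That scaling moved the median of all tested genes to −0.12 in this comparison, so relative to the median gene IER2 stood near 0 either way.

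**Figure D3:**
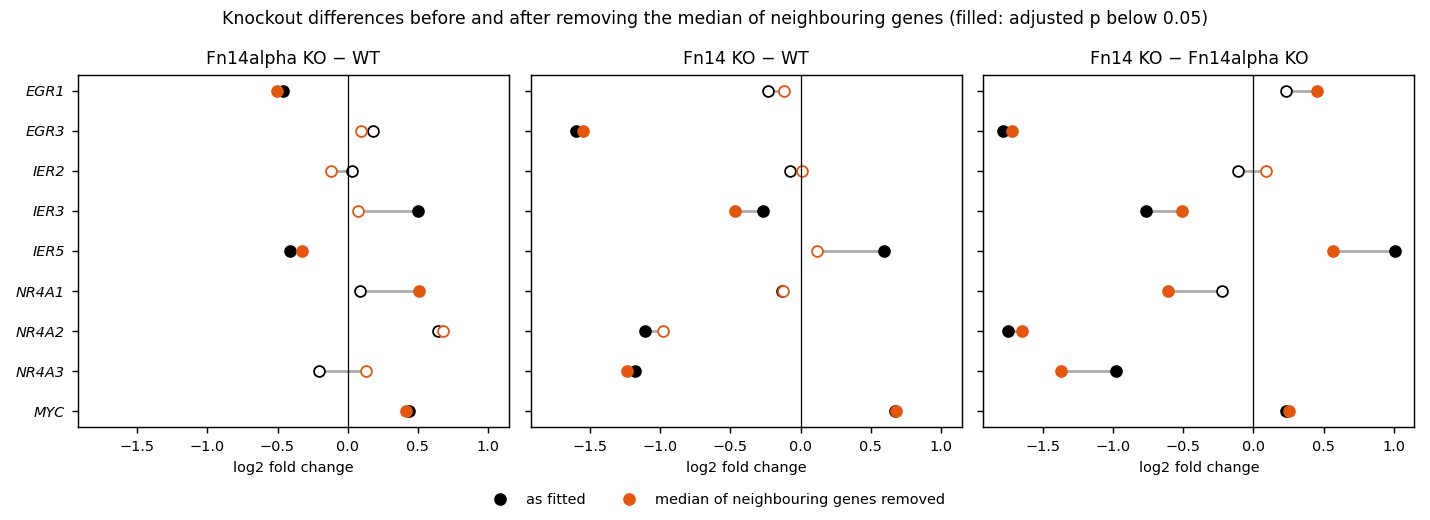
Log2 fold change of the 9 tested genes in 3 comparisons (horizontal axis) as fitted (black) and with the median of the 50 tested genes on either side removed (orange); filled points passed at an adjusted p below 0.05. IER3 in the Fn14alpha knockout and IER5 in the Fn14 knockout moved to 0.08 and 0.12, while MYC hardly moved.

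Among the other early genes, FOSB went in the Fn14 knockout from 0.980 ± 0.104 FPKM in WT to 0.228 ± 0.0699 (log2 fold change −1.99), FOS from 1.00 ± 0.0622 to 0.455 ± 0.130 (−1.01) and ATF3 from 0.883 ± 0.111 to 0.448 ± 0.0457 (−0.86); all 3 are transcription factors of the AP-1 and ATF group, passed by edgeR and were named after their values were seen. Of other early genes at a few FPKM, CSRNP1 was called higher (0.32), and IER5L (0.12) and KLF4 (0.16) did not pass. TRIB1 (−0.84), BTG2 (−0.39), ZFP36 (−0.43) and PLK3 (−0.23) were called lower (these too named after their values were seen). Over the 34 other early genes 13 were higher and 11 lower (median 0.03), where 26.6% of all tested genes were called higher and 26.3% lower. NFKBIZ, an atypical inhibitor of NF-kB, fell from 7.72 ± 0.415 to 1.55 ± 0.267 FPKM (−2.19) and JUNB from 34.6 ± 2.35 to 15.1 ± 1.27 (−1.09). SGK1 rose from 12.7 ± 0.642 to 34.8 ± 1.93 FPKM (1.57). The genes named as higher with TWEAK went different ways in the Fn14 knockout, against the same WT libraries. JUNB was called lower there, and in the Fn14alpha knockout too (−0.50). CCN1 (0.67) and FOSL1 (0.25) were called higher in the Fn14 knockout, as was MYC.

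SRF and its cofactors were higher in the Fn14 knockout, with 6 of 6 called higher (median 0.57). The list counts here are to be read against the 26.6% called higher and 26.3% lower among all tested genes. ELK1 rose from 15.8 to 30.7 FPKM (log2 fold change 1.08), MRTFA from 3.67 to 6.46 (0.93) and ELK4 from 4.89 to 7.59 (0.75). Their neighbours had medians of 0.59, 0.40 and 0.41, and with these removed ELK1, MRTFA and ELK4 were at 0.49, 0.54 and 0.35, and 5 of the 6 still passed. Of the genes whose CArG boxes are printed above, EGR1 did not pass in this comparison, and EGR2 was not tested because it failed the filter on low counts. In the ERK cascade 7 of 16 were higher and 3 lower (median 0.06): the kinases ARAF by 1.01 and RPS6KA2 by 1.39 were among those higher. The neighbours of ARAF had a median of 0.59. With the local median removed ARAF was at 0.42 and RPS6KA2 at 1.63, and both passed.

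Among EGR partners and targets 4 of 8 were higher and 2 lower in the Fn14 knockout (median 0.09), with PDGFB at 1.07 and HPSE at −0.88. For this and the lists below, the shares over all tested genes were 26.6% higher and 26.3% lower. RXRA was lower (−0.35) and RXRB did not pass. The MYC network had 5 of 15 higher and 4 lower (median −0.01): the MAX-like protein MLX at 0.59, and the MYC antagonists MXD1 at −0.93 and MXD4 at 0.55. MYC targets had 7 of 18 higher and 2 lower (median 0.12), and 8 and 5 without both libraries that stood apart (median 0.07). As fitted, NOP56 went from 40.5 to 74.0 FPKM (0.99), with GNL3 at 0.70 and NOP16, a nucleolar protein, at 0.60. Their neighbours had medians of 0.71, 0.52 and 0.42, and with these removed NOP56 stood at 0.28 and passed, while GNL3 (0.18) and NOP16 (0.18) did not. Of the 8 heat shock genes 3 were higher and 2 lower, with HSPA1A at −1.18 and HSPA1B at 0.69. These 2 are near-identical copies, and the labels do not say how reads that fit both were counted, so both values are uncertain; the part of handling stress in the early gene results was not tested.

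The knockouts differed from each other in 6 of the 9 tested genes. IER5 and MYC were higher in the Fn14 knockout than in the Fn14alpha knockout, and IER3, EGR3, NR4A2 and NR4A3 were lower. Counts were 2 higher and 4 lower, where 59.2% of all tested genes were called, 30.7% higher and 28.5% lower. The called share of the 9 genes was near that background, with a median log2 fold change of −0.22 against a value near 0 over all tested genes. Without the libraries that stood apart the count was again 6.

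IER5 was 2.01-fold higher in the Fn14 than in the Fn14alpha knockout, with no overlap between 13.9 to 15.4 and 24.1 to 32.3 FPKM (log2 fold change 1.01 ± 0.08 SE, edgeR adjusted p = 2.57e-10). IER3 was 1.70-fold lower, with no overlap between 41.9 to 47.9 and 22.3 to 25.3 FPKM (−0.77 ± 0.07 SE, edgeR adjusted p = 4.06e-09). As fitted, these 2 genes thus had opposite orders in the knockouts, with WT between them in both cases. With the local median removed the differences were 0.57 for IER5 and −0.51 for IER3, and both passed. Against WT, however, IER3 in the Fn14alpha knockout (0.08) and IER5 in the Fn14 knockout (0.12) then did not pass. MYC differed by 0.23 ± 0.07 SE (edgeR adjusted p = 0.00772) with overlapping libraries, since Fn14 knockout replicate 1 lay below all 4 Fn14alpha knockout libraries. That call was lost with library totals as the scale (0.08, adjusted p = 0.331), which moved the median of all tested genes to −0.15.

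NR4A2 was 3.37-fold lower in the Fn14 than in the Fn14alpha knockout, with 79 reads in the Fn14alpha and 22 in the Fn14 knockout libraries together (log2 fold change −1.75 ± 0.38 SE, edgeR adjusted p = 3.69e-04). NR4A3 was 1.97-fold lower, with 127 against 61 reads (−0.98 ± 0.30 SE, edgeR adjusted p = 0.00776), and EGR3 3.45-fold lower, with 41 against 11 (−1.78 ± 0.57 SE, edgeR adjusted p = 0.00942). None of these 3 overlapped between the knockouts, and each kept its call in every alternative that tested it. With the knockout groups fitted alone, EGR3 failed the filter on low counts and was not tested. NR4A1 did not pass (−0.22, edgeR adjusted p = 0.111), though its neighbours had a median of 0.39, and it stood at −0.61 and passed with that removed. Likewise EGR1 went from 0.23 to 0.45 and IER2 from −0.11 to 0.09, of which EGR1 passed (edgeR adjusted p = 0.0456).

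Counts of the lists around these genes are to be read against the 30.7% called higher and 28.5% lower among all tested genes. SRF and its cofactors had 5 of 6 higher and 0 lower by edgeR between the knockouts (median 0.64). With the local median removed these were 4 and 0. As fitted, ELK1 was at 1.10, ELK3 at 0.96 and MRTFA at 0.86. The other early genes had 10 of 34 higher and 11 lower (median 0.06), with PHLDA1 at 1.52, SGK1 at 1.15 and NFKBIZ at −1.69. The ERK cascade had 7 of 16 higher and 3 lower (median 0.15), with RPS6KA2 at 1.49, ARAF at 0.82 and RPS6KA3 at −1.19. ARAF lost its call with the local median removed (0.13). EGR partners and targets had 4 of 8 higher and 2 lower (median 0.18), among them the EGR corepressor NAB2 at 0.84 and HPSE at 0.96. RXRA (−0.18) and RXRB (−0.29) were both lower, but RXRB did not pass with the local median removed (−0.04). The MYC network had 6 of 15 higher and 6 lower (median −0.06), with MXD4 at 0.56, MXD3 at 0.64 and MXD1 at −0.67. MXD1 lost its call with the local median removed (−0.17). MYC targets had 7 of 18 higher and 4 lower (median 0.10), but 7 and 7 without both libraries that stood apart (median −0.04). As fitted, NOP56 was at 0.53, DKC1, the pseudouridine synthase of small nucleolar particles, at 0.69, and NOP16 at 0.64. Of these only NOP16 passed with the local median removed. Mitochondrial mRNAs, a sign of RNA quality, had 6 of 13 higher and 2 lower (median 0.25), with MT-CO3 and MT-ATP6 both at 0.83, and the heat shock genes 4 of 8 higher and 1 lower (median 0.08); their part in the differences between the knockouts was not tested.

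**Figure D4:**
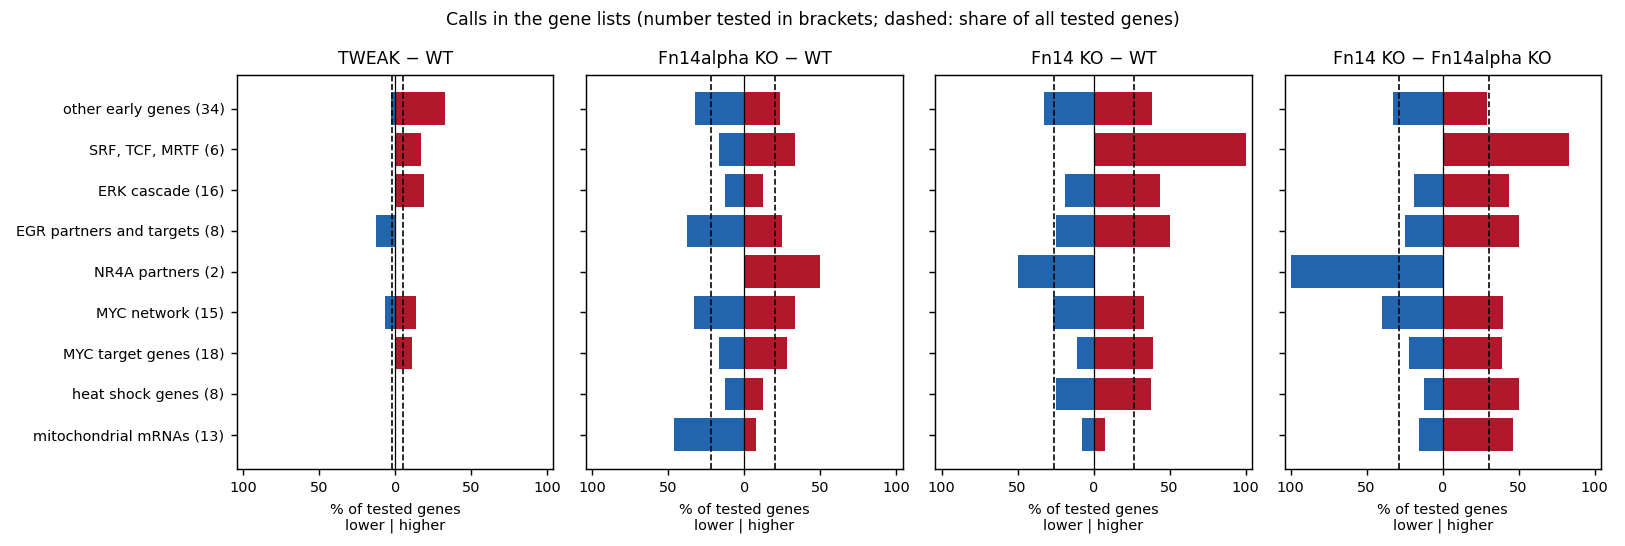
Share of the tested genes of each list called higher (red, to the right) or lower (blue, to the left) in 4 comparisons, in percent; dashed lines give the share of all tested genes called in that direction. The bar of SRF and its cofactors reaches 100% higher in the Fn14 knockout, while MYC targets stay nearer the dashed lines.

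Group means spanned at least 1 on the log2 CPM scale in EGR3 (1.92), NR4A3 (1.67) and NR4A2 (1.58). For each of these 3, the 2 genes with the most similar pattern were sought among 11487 candidates, by the root mean square difference of the 4 centred group means, a description over 4 groups. For EGR3 these were the long noncoding RNA MEG3 (difference 0.0852), at 5.78 FPKM in WT, 7.75 with TWEAK, and 6.36 and 2.33 in the Fn14alpha and Fn14 knockouts, and ALDH1A3, a retinaldehyde dehydrogenase (0.101). For NR4A2 they were SLC29A4, a monoamine transporter (0.0496), at 1.30, 1.37, 1.97 and 0.610 FPKM in the same order, and ISYNA1, which makes inositol phosphate (0.0504). For NR4A3 they were PPP4R4, a regulatory subunit of protein phosphatase 4 (0.0427), and TNFAIP2, a gene induced by TNF (0.0553), at 21.7, 29.7, 20.9 and 9.03 FPKM.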

How the data were processed

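Counts per gene were taken as the authors deposited them, with no normalization, for 16 libraries. The authors deposited FPKM values in the same table, which equal the count scaled by exonic length and library total. Upstream, per the submitters' processing notes, HISAT2 2.0.1, HTSeq 0.6.1, DESeq2, FastQC 0.10.1 and cutadapt 1.9.1 were used with the builds GRCh38.p13 and hg38; their roles, strand setting and annotation release are not stated there. Samples were grouped by their titles and genotype and treatment labels.

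Genes were tested with edgeR 4.0.16 (R 4.3.3), quasi-likelihood, two-sided, with TMM scaling, filterByExpr by group (16029 of 61806 genes, 9 of the 10 members), robust estimation and 1 mean per group. Adjusted p-values are Benjamini-Hochberg values over all tested genes, and calls were made below 0.05. SE is the log2 fold change divided by the square root of F. The script was tested on simulated data. Alternatives were other scalings, no filter, DESeq2 1.42.0, limma 3.58.1 on log2(FPKM + 1) and log2(FPKM + 0.1), the groups of a comparison alone, each replicate left out, WT replicate 4 and Fn14 knockout replicate 1 left out together, a replicate block and an offset for the local median of 50 genes on each side. Plots used Python 3.11.15 and matplotlib 3.10.9.

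The members, gene lists and tests were chosen with earlier results of these data known. All members were named, and of each list up to 3 called genes per comparison with the smallest adjusted p; others are marked where they stand. Some genes that this rule takes are not reported here. Over 24 replicate pairs the chi-square of the counts was 2.40 to 42.9 per degree of freedom, so no library repeated another.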

Additional observations from a re-analysis of the deposited data

Results flagged for a closer look

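IER5 in Fn14 knockout replicate 1 stood at 32.29 FPKM, far above the other 3 libraries of its group. Its gap to the nearest of them was 0.891 of the group's range, above Dixon's 95% critical value for 4 samples. This was the only such case in 40 groups of values, and chance gives about 1 in 20.

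The effects of the 2 knockouts against the same WT libraries differed, by edgeR's test of Fn14 knockout minus Fn14alpha knockout, in 6 genes. On the log2 scale the difference was −1.78 for EGR3, −1.75 for NR4A2, −0.98 for NR4A3, −0.77 for IER3, 1.01 for IER5 and 0.23 for MYC. Explanations for these differences were not tested.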

How the results depend on the processing

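Over 36 pairs of gene and comparison, 18 were called, and 11 of these kept direction and call in all alternatives that tested them. In the comparisons with WT they were MYC in all 3, IER5 in the Fn14alpha knockout, and IER3 and NR4A3 in the Fn14 knockout. Between the knockouts they were EGR3, IER3, IER5, NR4A2 and NR4A3. With the groups of a comparison fitted alone, EGR3 was untested in every comparison with a knockout, and NR4A2 in the Fn14 knockout against WT. Of the 18 not called, 13 passed in no alternative. No called value changed sign.

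With TWEAK the count of called genes fell from 2 to 1 with library totals, the replicate block and limma at both pseudocounts, and ran from 1 to 2 with a replicate left out. The replicate block changed no other call; deviations of libraries with the same number correlated at −0.23 to 0.11, so the numbers are not known to pair samples. For NR4A2 with TWEAK the log2 fold change turned to −0.023 with library totals, −0.083 without both libraries that stood apart, −8.42e-04 and −0.015 with limma at pseudocounts of 1 and 0.1, and ran from −0.10 to 0.22 with a replicate left out. For EGR3 in the Fn14alpha knockout it ran from −0.062 to 0.55 with a replicate left out. With the local median removed IER2 turned to −0.12 in the Fn14alpha knockout, 0.010 in the Fn14 knockout and 0.092 between the knockouts, and NR4A3 to 0.13 in the Fn14alpha knockout. The cause of these turns was not tested, and all lay near 0.

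With library totals or limma, IER2 and NR4A1 also passed between the knockouts. Depth limits EGR2, with 0 to 7 reads per library, and EGR3, NR4A2 and NR4A3, for which a pseudocount of 1 FPKM shrinks every log2 difference.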
